A study of Mus musculus with 8 samples.

Results

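The 10 genes described here are Notch1, Notch2, Adam10, Lfng, Rbpj, Maml1, Maml2, Maml3, Dtx1 and Hes1, of 21887 protein-coding genes annotated in GRCm38.p6. Their chromatin was described by every ATAC-seq summit inside the gene span or within 50 kb of it on both sides, called the gene window below. A summit is the point of highest signal in a region that a peak caller found open to the Tn5 transposase. Summits from all libraries were joined into 1 site where neighbours were at most 250 bp apart, which gave 267 sites in the windows of these 10 genes, of 112443 sites in all.

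The data are 8 libraries of conventional dendritic cells from mouse spleen, in 4 groups of 2. Type 1 cells (cDC1) were sorted as Lin-CD11c+MHCII+CD64-XCR1+CD11b- and type 2 cells (cDC2) as XCR1-CD11b+ cells of the same gate. The mice were labelled HDAC1 floxed, called WT here, or HDAC1 Mx1-Cre, called KO here. Every group, WT included, came from mice given PolyI/C to induce recombination and sorted 2 weeks later, so no group was free of that treatment. Mx1-Cre is driven by an interferon-responsive promoter and is not restricted to dendritic cells. Ages and sexes are not given in the labels, and the labels do not say whether the libraries of a group came from separate mice, so a p-value here reflects the spread between libraries, and that spread may be technical. The loss of Hdac1 itself could not be checked, since a summit list does not show whether an exon is deleted. The Hdac1 window held 9 to 13 summits in the cDC1 and 8 to 11 in the cDC2 libraries.

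Notch receptors are cut by the metalloprotease Adam10 after they bind a ligand on a neighbouring cell. A further cut frees the intracellular part, which enters the nucleus, joins the DNA-binding protein Rbpj and recruits a Mastermind-like coactivator (Maml1, Maml2 or Maml3). Hes1, a repressor, and Dtx1, a ubiquitin ligase that acts on Notch signalling, are classical target genes, and the glycosyltransferase Lfng changes which ligands a Notch receptor prefers. In mouse spleen, signalling through Notch2 is known to be needed for the Esam-high cDC2 population.

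The deposited lists held 74963 to 96031 summits in the cDC1 libraries and 61737 to 78296 in the cDC2 libraries. The mean length fell by 12234 from cDC1 to cDC2, which did not pass an exact 2-sided permutation test (p = 0.114, 4 against 4 libraries). Without the second KO cDC2 library it fell by 15360 (exact permutation p = 0.0286). Every list was therefore shortened to its 61737 best summits. At that length the 10 windows together held 137 to 150 summits in the cDC1 libraries and 132 to 154 in the cDC2 libraries. Each site was given a rank score per library, the percentile of its best summit within that list, with 100 for the best and 0 where the list had no summit. The lists carry no read counts, so the depth is unknown and a rank score of 0 means that no peak was called among the best 61737, not that the chromatin was closed. Sites with a summit in at least 2 libraries were tested. Where 1 subset had no summit, the site entered the test through the other subset, its zeros are set values without spread, and the p-value repeats the presence pattern rather than adding to it. Where 4 values of a subset are given in a row, they are the WT libraries 1 and 2 and then the KO libraries 1 and 2. In bulk libraries, a site open in more cells and a site more open in each cell cannot be told apart.

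Windows of marker genes were read in the same way. Of 8 cDC1 marker windows, 4 had fewer summits in cDC2 (Cd8a, Irf8, Cadm1 and Tlr3) and 1 had more (Clec9a), and of 7 cDC2 marker windows 2 had more (Esam and Clec4a4), beside 5.93% of all genes called lower and 5.84% called higher. The cDC1 marker windows summed to 110 to 112 summits in cDC1 and 81 to 89 in cDC2 libraries, the cDC2 marker windows to 58 to 72 and 71 to 80, and 5 windows of genes shared by conventional dendritic cells to 92 to 96 and 78 to 93, with none called. The Xcr1 and Itgam windows, which hold the genes used in the gate, were not called (adjusted p = 0.435 and 1.0, limma). The 8 B cell marker windows summed to 55 to 63 summits in cDC1 and 59 to 64 in cDC2 libraries, with 1 called lower (Ms4a1). The sums were 46 to 54 against 45 to 58 over 7 T cell windows, 22 to 24 against 21 to 25 over 3 NK cell windows, 42 to 50 against 48 to 52 over 4 plasmacytoid dendritic cell windows, 30 to 37 against 28 to 35 over 5 monocyte and macrophage windows, and 26 to 36 against 24 to 32 over 4 granulocyte windows. Among these, Ccr9, Ly6c2, Vcam1 and Ly6g were lower in cDC2. No marker window was at 0 in all libraries, and the part of other cell types in the results below was not tested.

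Promoters of 4 of the genes are shown because their start sites are described below and because they differ in how many Rbpj core motifs they hold. Each runs from 250 bases before to 50 bases after the start site, 5′ to 3′ on the gene's strand, in RefSeq's GRCm38.p6. They lie at chr3:98013288-98013587 (Notch2, plus strand), chr5:140607091-140607390 (Lfng, plus strand), chr5:53590096-53590395 (Rbpj, the first of its annotated starts, plus strand) and chr5:120711620-120711919 (Dtx1, minus strand). Capitals mark the letters TGGGAA, the Rbpj core, read on either strand.
Notch2: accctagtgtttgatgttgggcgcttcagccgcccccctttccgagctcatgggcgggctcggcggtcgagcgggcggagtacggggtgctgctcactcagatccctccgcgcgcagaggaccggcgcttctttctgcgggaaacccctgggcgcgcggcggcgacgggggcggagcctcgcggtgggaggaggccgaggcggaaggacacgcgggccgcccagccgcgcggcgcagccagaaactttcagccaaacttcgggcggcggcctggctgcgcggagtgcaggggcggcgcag
Lfng: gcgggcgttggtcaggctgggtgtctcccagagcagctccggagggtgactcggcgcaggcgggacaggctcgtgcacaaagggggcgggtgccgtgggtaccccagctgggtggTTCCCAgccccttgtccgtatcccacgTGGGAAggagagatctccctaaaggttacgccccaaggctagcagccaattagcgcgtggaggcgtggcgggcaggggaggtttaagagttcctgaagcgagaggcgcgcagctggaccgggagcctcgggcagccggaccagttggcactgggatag
Rbpj: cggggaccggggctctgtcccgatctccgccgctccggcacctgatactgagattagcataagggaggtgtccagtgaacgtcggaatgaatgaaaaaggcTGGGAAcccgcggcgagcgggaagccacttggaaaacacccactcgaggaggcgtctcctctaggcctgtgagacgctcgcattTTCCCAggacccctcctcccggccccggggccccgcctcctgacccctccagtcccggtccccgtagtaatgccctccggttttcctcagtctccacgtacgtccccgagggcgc
Dtx1: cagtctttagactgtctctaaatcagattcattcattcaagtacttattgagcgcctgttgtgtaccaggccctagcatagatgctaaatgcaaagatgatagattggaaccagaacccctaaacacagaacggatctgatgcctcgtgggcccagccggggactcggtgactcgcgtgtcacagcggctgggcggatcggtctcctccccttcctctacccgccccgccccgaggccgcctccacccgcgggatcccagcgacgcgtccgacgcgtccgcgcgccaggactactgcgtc
The promoter table matched 9 of the 10 genes with 11 promoters. Hes1 has no entry in it. The core was found in 24.5% of all 21263 promoters of this length and in those of Lfng, Rbpj, Maml2 and Maml3. Lfng had it 135 and 108 bases before the start site, Rbpj 149 and 65 bases before the start shown, and Maml3 185 bases before it. The promoters of Notch2, Notch1, Dtx1, Adam10 and Maml1 did not hold these letters in this window. AP-1 (TGACTCA) and an interferon response motif (GAAA, any 2 letters, GAAA) were in none of the 11 on either strand, against 4.66% and 3.35% of all promoters, and the PU.1 motif (GAGGAAGT) was in 1, a Maml2 promoter, against 3.13%. A match of letters is a description and not a binding site.

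Seen across the 10 windows, 3 genes had libraries that did not overlap between the subsets. Notch2 and Dtx1 had more summits in every cDC2 library than in any cDC1 library, and Lfng had fewer. Over all genes tested, 13.1% of windows did not overlap between the subsets, 6.12% with cDC2 above cDC1 and 7.03% with cDC2 below. Summits per window were compared as log2(summits + 1) with limma over 17728 genes. Only Dtx1 was called in the contrast of cDC2 against cDC1 over both genotypes. That was 1 of 10 genes, beside 11.8% of all genes tested. The median difference of the 10 genes was 0.12 (log2), against 0.0 over all genes.

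**Figure D1:**
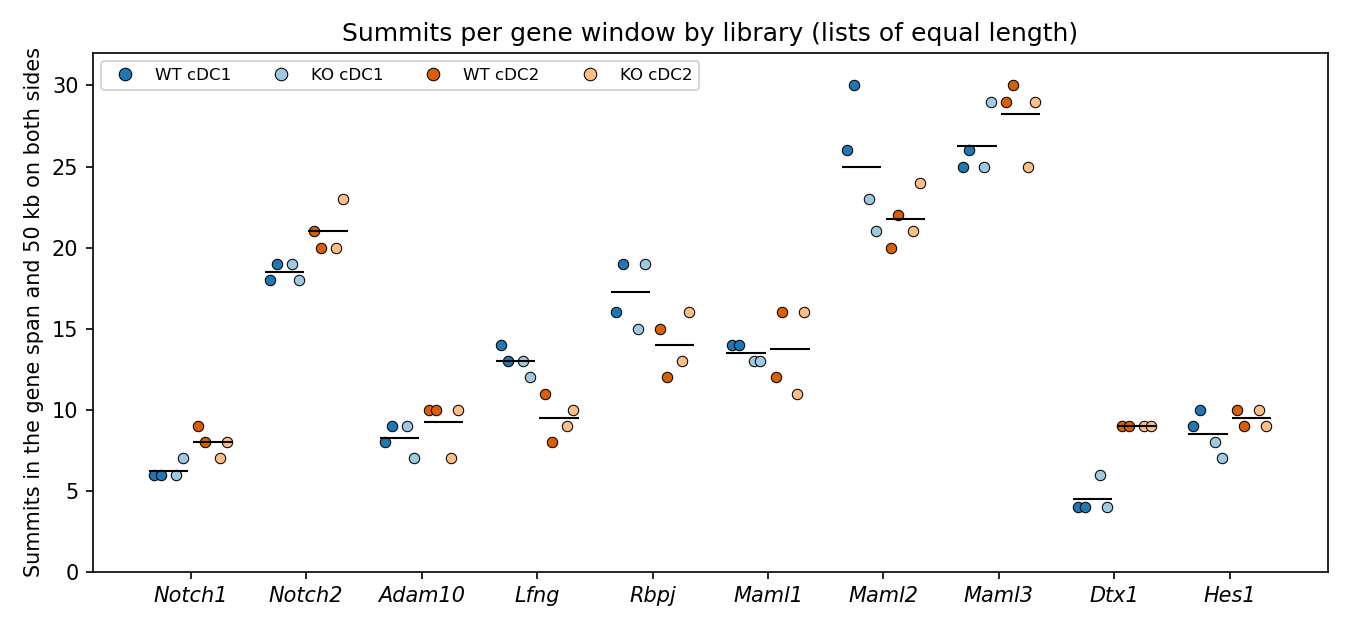
Number of summits in the window of each gene (y axis) by gene (x axis), in lists of equal length. Points are single libraries coloured by group, and lines are the means of the 4 libraries of a subset. The 4 cDC2 libraries sit at 9 for Dtx1, above the 4 to 6 of cDC1, and the cDC2 libraries of Lfng sit at 8 to 11, below the 12 to 14 of cDC1.

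The receptor Notch2 (chr3:98013538-98150367, plus strand) had 18, 19, 19 and 18 summits in the cDC1 libraries and 21, 20, 20 and 23 in the cDC2 libraries. The subsets did not overlap, and the gap between them was 1 summit. The log2 difference of cDC2 minus cDC1 was 0.17 (SE 0.12), which limma did not call (adjusted p = 0.38). Inside the gene span there were 7 to 8 summits in cDC1 and 9 to 12 in cDC2 libraries, and outside it 10 to 12 and 9 to 12. Counted inside the span alone, the difference was 0.43 (adjusted p = 0.194). With all deposited summits in place of lists of equal length the difference was -0.06 (adjusted p = 0.853), and with the best 30868 summits of each list it was 0.58 (adjusted p = 0.0401). Over all alternatives the adjusted p ranged from 0.0401 to 0.853.

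The Notch2 window held 41 sites, of which 10 were found in all 8 libraries and 11 in 1 library. Of the 30 sites tested, 4 ranked higher and 4 lower in cDC2, which is 26.7%, beside 27.0% of all 85076 sites tested. The sites gained and lost were spread over the window. At 115.5 kb into the gene (chr3:98129019-98129071) the cDC1 libraries had rank scores of 53.3 and 48.7 in WT and 55.5 and 49.7 in KO, and no cDC2 list of equal length had a summit there. That difference was -51.8 (SE 6.12, adjusted p = 0.00287, limma). The longer deposited lists had a summit in that site in 2 of the 4 cDC2 libraries, and the nearest cDC2 summit in the lists of equal length was 596 bases away. Another site present in the cDC1 lists and in no cDC2 list lay 10.2 kb before the start site (chr3:98003330-98003381), with 49.6 and 35.9 in WT and 46.8 and 20.7 in KO. It differed by -38.3 (SE 7.67, adjusted p = 0.0138). The deposited cDC2 lists held no summit in it.

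Sites of Notch2 found in every cDC2 list and no cDC1 list lay 38.4 kb and 88.2 kb into the gene. The latter (chr3:98101688-98101760) had rank scores of 14.3 and 24.6 in WT and 30.2 and 37.9 in KO, a difference of 26.7 (adjusted p = 0.0105). At 38.4 kb the cDC2 libraries had 41.6 and 8.47 in WT and 7.64 and 37.6 in KO, which was not called (adjusted p = 0.108). The highest rank scores inside the gene were shared. At 33.0 kb (chr3:98046526-98046560) all libraries lay between 84.6 and 97.4, and the difference was 4.30 (adjusted p = 0.301). Called sites present in both subsets were 42.2 kb before the start (61.9 ± 12.4 in cDC1 and 85.7 ± 1.80 in cDC2, SD, n = 4 each, adjusted p = 0.00331), 8.0 kb before it (39.2 against 67.8), 12.1 kb into the gene (31.5 against 62.7) and, in the other direction, 53.1 kb into it (78.7 against 55.4). The call at 8.0 kb before the start was lost under 11 of 17 alternatives, among them leaving out any 1 library but the second KO cDC1 library. That at 12.1 kb was lost under 6 and that at 53.1 kb under 2.

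The start site of Notch2 was open in all 8 libraries, with summits 32 to 106 bases before it, inside the sequence shown above. Its rank scores were 96.7, 94.9, 93.7 and 89.8 in cDC1 and 87.4, 84.0, 91.8 and 88.5 in cDC2. The cDC1 libraries lay higher, except that the second KO cDC1 library was below the first KO cDC2 library. The difference was -5.86 (SE 1.52, adjusted p = 0.0317). Leaving out any 1 of 5 libraries (either WT cDC1 library, the first KO cDC1, the second WT cDC2 or the second KO cDC2 library) ended this call, as did testing sites with a summit in at least 1 library or a fit without a variance trend, and over all alternatives the adjusted p ranged from 0.0149 to 0.183. Of the 8027 sites within 1 kb of a start site and found in all 8 libraries, 12% ranked lower and 5.54% higher in cDC2.

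**Figure D2:**
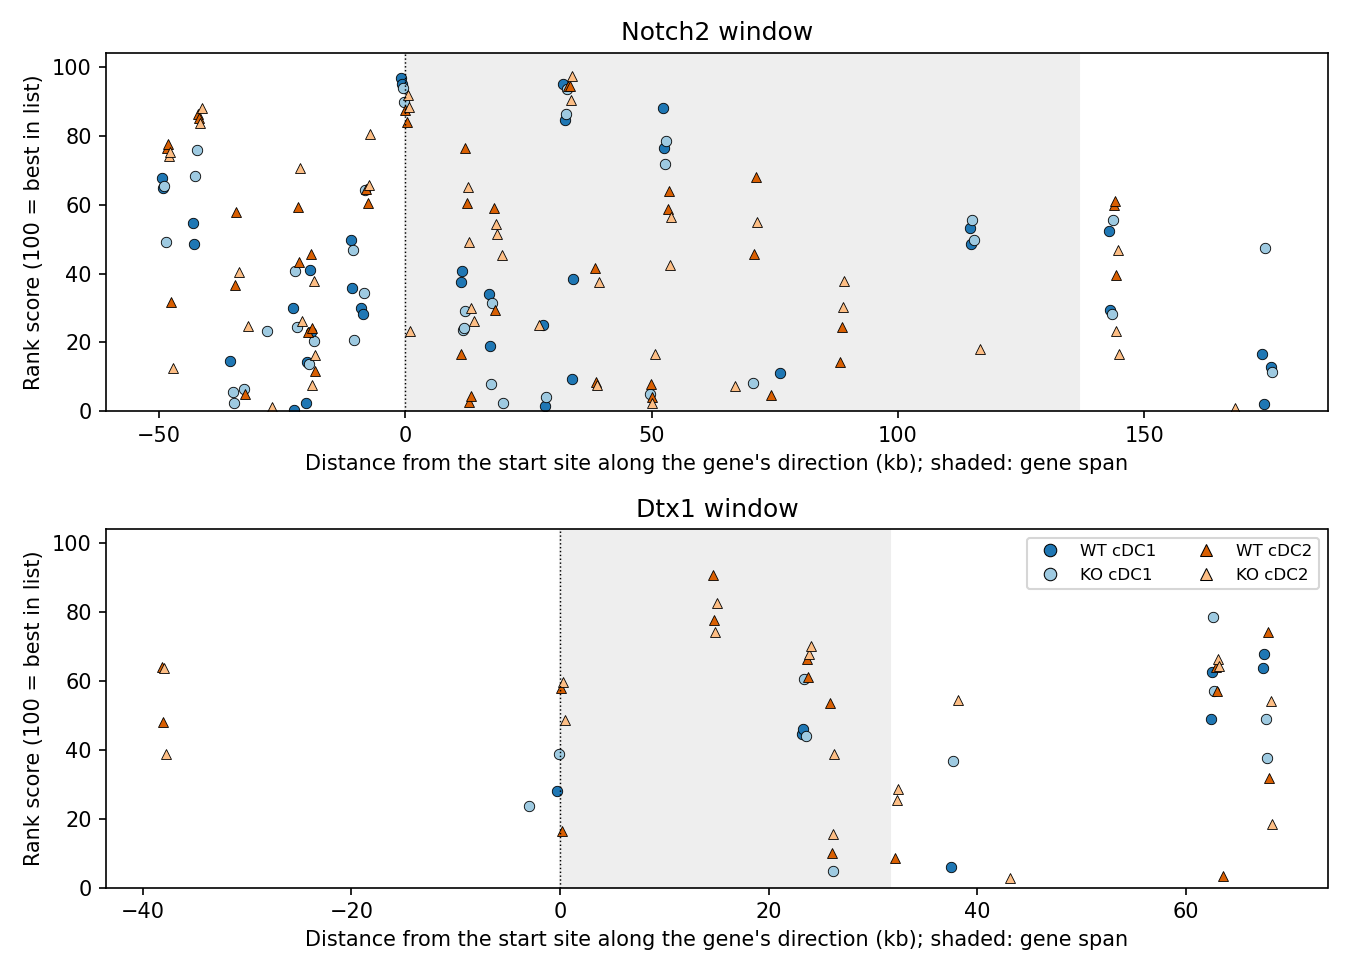
Rank score (y axis, 100 for the best summit of a list) of every site in the Notch2 and Dtx1 windows against the distance from the start site in kb (x axis). Circles are cDC1 and triangles cDC2 libraries, the shaded band is the gene span, and libraries without a summit in a site are not drawn. Dtx1 has a group of triangles at 14.6 kb with no circle, and Notch2 has a group of circles at 115.5 kb with no triangle.

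Notch1 (chr2:26457902-26503822, minus strand), the receptor known for T cell fate, had 6, 6, 6 and 7 summits in cDC1 and 9, 8, 7 and 8 in cDC2. The subsets met at 7. The difference was 0.31 (SE 0.12, adjusted p = 0.132). Its window held 11 sites, fewer than any other gene of the 10. A site 36.8 kb before the start site (chr2:26540557-26540671, between genes) had no cDC1 summit and rank scores of 40.0 and 58.6 in WT and 70.9 and 63.5 in KO cDC2. This difference was 58.3 (SE 7.30, adjusted p = 0.00327). No deposited cDC1 list held a summit in this site, and the call was made under all 17 alternatives run for sites. Its cDC1 values are set zeros, so the p-value and these calls restate the presence pattern. The Notch1 start site had 75.0 to 84.6 in cDC1 and 59.0 to 79.0 in cDC2 libraries, which was not called (adjusted p = 0.0940). The only other called site of 9 tested lay inside the neighbouring gene Sec16a, near its start site (95.8 against 90.2), a call lost under 3 of 17 alternatives. The highest mean rank in the window belonged to the start site of Inpp5e, at 89.7 to 96.3 in all libraries.

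Adam10 (chr9:70678944-70780229, plus strand), the protease that cuts Notch, had 8, 9, 9 and 7 summits in cDC1 and 10, 10, 7 and 10 in cDC2. The groups overlapped, and the difference was 0.14 (SE 0.15, adjusted p = 0.576). No site was in every list of 1 subset and no list of the other, and the 3 sites called, of 12 tested, ranked lower in cDC2, beside 14.3% of all sites. One of them lay 27.7 kb into the gene (chr9:70706606-70706678), with rank scores of 80.4 and 78.1 in WT cDC1 and 53.0 and 49.3 in KO cDC1, against 8.78, 0, 0 and 10.8 in the cDC2 libraries in the same order. The difference was -60.3 (SE 6.98, adjusted p = 0.00276), and the KO cDC1 libraries lay below the WT cDC1 libraries. The contrast of KO and WT in cDC1 did not call this site (adjusted p = 0.415). The other called sites lay inside the lipase gene Lipc (40.7 against 1.77) and at the start site of Mindy2 (99.0 against 95.8). The start site of Adam10 ranked from 91.5 to 99.1 in all libraries.

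Lfng (chr5:140607341-140615545, plus strand) had 14, 13, 13 and 12 summits in cDC1 and 11, 8, 9 and 10 in cDC2. Every cDC2 library was below every cDC1 library, and the difference was -0.42 (SE 0.13), which was not called (adjusted p = 0.0674). It was called with a filter at a mean of 3 summits (adjusted p = 0.0438), with a trended, robust variance (0.0207) and without the first WT cDC2 library (0.0386), and the adjusted p ranged up to 1.0 over the alternatives. With a window of 10 kb the difference was 0.01. Of 14 sites tested, 3 were called, all lower in cDC2 (21.4%, beside 14.3% of all sites). They lay 33.6 to 44.9 kb from the gene. The site with the largest difference lay 44.9 kb before the start site (chr5:140562382-140562418). It had rank scores of 61.9 and 53.0 in WT cDC1 and 56.2 and 74.3 in KO cDC1 and no summit in the cDC2 lists, a difference of -61.3 (SE 7.40, adjusted p = 0.00301). Beside it, inside the neighbouring gene Grifin, a second site fell from 72.9 ± 6.64 to 15.7 ± 23.5 (SD, n = 4 each, adjusted p = 0.0151). The last called site was at the start site of Ttyh3 (96.3 against 90.4). It was lost under 8 of 17 alternatives, and the Grifin call under 3 of 17. The Lfng start site, whose summits lay in the sequence that holds both Rbpj cores, ranked 77.8 to 87.6 in cDC1 and 75.1 to 82.1 in cDC2, and was not called (adjusted p = 0.0727).

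Rbpj (chr5:53555779-53657445, plus strand) had 16, 19, 15 and 19 summits in cDC1 and 15, 12, 13 and 16 in cDC2. The libraries overlapped between the subsets (difference -0.28, SE 0.14, adjusted p = 0.227). The clearest site lay 23.7 kb before the start site, within the annotated span (chr5:53566628-53566685). Its rank scores were 86.3, 88.5, 81.0 and 74.5 in cDC1 and 42.5, 54.5, 46.2 and 37.1 in cDC2, with no overlap. The difference was -37.5 (SE 4.70, adjusted p = 0.00327), and it was called under all 17 alternatives. A site 82.8 kb before the start (chr5:53507576-53507599) was found in the 4 cDC1 lists, with rank scores of 25.3 to 53.5, and in no cDC2 list (adjusted p = 0.00599). In all, 4 of 21 sites tested were called (19.05%, beside 27.0% of all sites). Of the other called sites, one 95.1 kb after the start ranked lower in cDC2 (18.1 against 1.25) and one 17.7 kb before it ranked higher (77.5 against 87.2). These calls were lost under 6 of 16 and 10 of 17 alternatives. The strongest site of the window, 80.7 kb before the start, ranked between 90.5 and 96.0 in all libraries. At the later start site, 7 of 8 libraries had a summit, from 78.7 to 83.8 in cDC1 and from 59.3 to 68.3 in 3 cDC2 libraries. The first WT cDC2 library had none there, and the difference over all 8 was not called (adjusted p = 0.0851).

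None of the coactivator genes was called for its number of summits in the window. Maml1 (chr11:50255634-50293131, minus strand) had 13 to 14 summits in cDC1 and 11 to 16 in cDC2 libraries, Maml2 (chr9:13296561-13709533, plus strand) 21 to 30 and 20 to 24, and Maml3 (chr3:51687320-52105319, minus strand) 25 to 29 and 25 to 30. Their log2 differences were 0.01, -0.18 and 0.10, with SEs of 0.15, 0.12 and 0.12, and the adjusted p-values were 1.0, 0.369 and 0.638. Inside the Maml1 span alone there were 3 summits in each cDC1 library and 5, 6, 5 and 5 in cDC2, and that difference was called (0.64, adjusted p = 0.0427). Maml2 and Maml3 are the longest of the 10 genes. Per 100 kb of window, Maml2 held 4.56 summits and Maml3 5.26, against 9.91 for Maml1 and 8.34 for Notch2. Of the tested sites, 8 of 18 were called in Maml1 (44.4%), 15 of 32 in Maml2 (46.9%) and 12 of 42 in Maml3 (28.6%), beside 27.0% of all sites.

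Inside Maml1, sites 6.92 kb and 5.71 kb past the start were found in every cDC2 list and no cDC1 list. The cDC2 rank scores at 5.71 kb (chr11:50286570-50286687) were 43.0 and 36.2 in WT and 47.6 and 63.4 in KO (difference 47.6, SE 6.64, adjusted p = 0.00431). At 6.92 kb they were 16.1 to 38.4 (difference 28.5, adjusted p = 0.00697). A site 17.2 kb past the start went the other way (74.1 ± 1.45 in cDC1 and 41.2 ± 6.53 in cDC2, SD, n = 4 each, adjusted p = 0.00602), and the site next to it, at 16.3 kb, ranked higher in cDC2 (42.8 against 68.4), a call lost under 8 of 17 alternatives. The other 4 called sites of this window ranked lower in cDC2 and lay beyond the 3′ end of Maml1, 2 of them in or at Ltc4s, the leukotriene C4 synthase gene. The Maml1 start site ranked from 93.9 to 99.3 in all libraries, and the highest mean rank belonged to the start site of Canx, at 96.3 to 99.2.

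Maml2 differed at the very beginning of its annotated span (chr9:13296583-13296661), where all 8 libraries had a summit. The rank scores were 87.1, 86.2, 86.8 and 85.3 in cDC1 and 95.8, 95.1, 96.2 and 94.8 in cDC2. The spread within a subset was under 1 (SD 0.80 and 0.66), the subsets did not overlap, and the difference was 9.11 (SE 0.99, adjusted p = 0.00243). The start site for which the promoter table has an entry lies 1.34 kb further on and ranked 9.24 to 34.3 in all libraries, without a call (adjusted p = 0.877). Sites found in every cDC1 list and no cDC2 list lay 16.2 kb past that start (22.0 to 51.3 in cDC1, adjusted p = 0.0238) and 80.3 kb past the later start, beyond the gene (17 to 69.9, adjusted p = 0.0638, not called). Among the other called sites, 7 ranked higher and 6 lower in cDC2. The widest gap was at 145.7 kb past the first start (13.1 ± 15.6 in cDC1 and 70.7 ± 16.6 in cDC2, SD, n = 4 each). A site 19.3 kb past the later start went from 4.44 ± 8.87 to 54.7 ± 20.6, and one 25.7 kb past the first start from 76.2 ± 3.72 to 25.9 ± 25. One of the higher sites was the start site of the neighbour Mtmr2 (90.4 against 95.1), which lost its call under 9 of 17 alternatives, while the sites at 145.7, 25.7 and 19.3 kb lost theirs under 2, 2 and 4. The highest mean rank of the window belonged to the start site of Ccdc82, at 91.1 to 96.1 in all libraries.

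Maml3 held the site with the widest difference among the coactivator genes. At 38.5 kb past the start site (chr3:52066446-52066495) the cDC1 libraries had 0 and 8.22 in WT and 0 and 0 in KO, against 85.2 and 89.0 in WT and 83.0 and 67.1 in KO cDC2. The difference was 79.0 (SE 7.12, adjusted p = 0.00206). The deposited cDC1 lists held 1 summit there. Sites at 34.9, 16.4, 14.8, 75.1, 104.7 and 316.1 kb also ranked higher in cDC2, as did 1 inside the neighbour Mgst2. The site at 104.7 kb rose from 69.0 ± 6.18 to 87.3 ± 4.84 (SD, n = 4 each, adjusted p = 0.00891). Lower in cDC2 were sites at 357.4, 380.9, 381.3 and 405.5 kb, near the 3′ end of the gene. The site at 380.9 kb had summits in the WT cDC1 libraries alone and that at 381.3 kb in the KO cDC1 libraries alone, so their cDC2 values are set zeros. With chaining over 500 bp this pair became 1 site, as described below. The calls at 316.1 kb and 357.4 kb were lost or reversed under 10 of 17 and 11 of 15 alternatives. The Maml3 start site had low rank scores in both subsets, 8.51 to 41.7 in cDC1 and 20.7 to 47.0 in cDC2 (adjusted p = 0.326), and the highest mean rank of the window belonged to the site at 34.9 kb, with 76.5 to 86.4 in cDC1 and 90.3 to 96.6 in cDC2 (adjusted p = 0.0213, lost under 5 of 17 alternatives).

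Dtx1 (chr5:120680203-120711867, minus strand) had 4, 4, 6 and 4 summits in the cDC1 libraries and 9 in each of the 4 cDC2 libraries. The subsets were apart by 3 summits. The difference was 0.88 (SE 0.14, adjusted p = 0.00385), and higher windows made up 5.84% of all genes tested. It was called under all 19 alternatives run, with differences from 0.63 with all deposited summits to 1.21 with the best 30868 (adjusted p up to 0.03). Within WT the difference was 1.00 (SE 0.19, adjusted p = 0.0241), the only call among the 10 genes beside 3.31% of all genes. In KO it was 0.76 (SE 0.19, adjusted p = 0.0796), with 0 of 10 genes called beside 1.96%. The difference between these contrasts was -0.24 (SE 0.28, adjusted p = 1.0), so they were not shown to differ. The WT call was lost when any 1 of the 4 WT libraries was left out (adjusted p from 0.0587 to 0.0763) or when all deposited summits (0.0740) or the best 30868 (0.0981) were used. In KO, the call was made with a filter at a mean of 3 summits (0.0412), with a trended, robust variance (0.0469), with the replicate number as a block (0.0295) and with only the KO libraries in the fit (0.0286). Inside the gene span there were 1 to 2 summits in cDC1 and 4 to 5 in cDC2, and outside it 2 to 4 and 4 to 5.

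A site 14.6 kb into Dtx1 (chr5:120697033-120697145) had the widest difference of all 199 sites tested in the 10 windows. No cDC1 library had a summit there, not even in the longer deposited lists, and the nearest cDC1 summit was 8947 bases away. The cDC2 libraries had rank scores of 90.9 and 77.6 in WT and 74.1 and 82.7 in KO. The difference was 81.3 (SE 6.94, adjusted p = 0.00201), and it was called under all 17 alternatives of this contrast. As no cDC1 list had a summit there, the p-value restates that pattern. A site 38.2 kb before the start (chr5:120749837-120749967) had no cDC1 summit in the lists of equal length and 64.1, 47.9, 63.7 and 38.6 in the cDC2 libraries (difference 53.6, SE 8.33, adjusted p = 0.00604). The Dtx1 window also has Oas2 and Oas3 as neighbouring genes, and to which gene this site belongs was not tested. Another cDC2 site, 25.8 kb into Dtx1, had 10.02 to 53.5 and was not called (adjusted p = 0.0803), and a cDC1 summit lay 474 bases from it. A site 32 kb past the start was found in 3 cDC2 libraries and called (0 against 15.6 ± 13.6, SD, n = 4, adjusted p = 0.0267), a call lost under 6 of 15 alternatives, among them leaving out any 1 of the 4 cDC1 libraries or the first WT cDC2 library. Of the 9 sites tested in the Dtx1 window, 3 were called higher in cDC2 and none lower, beside 12.6% and 14.3% of all sites. The highest mean rank belonged to a site inside the neighbouring gene Rasal1, 62.8 kb past the start, at 48.9 to 78.6 in cDC1 and 57.1 to 66.4 in cDC2 (adjusted p = 0.908).

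The Dtx1 start site ranked low. Its rank scores were 0, 27.9, 0 and 38.6 in cDC1 and 58.0, 16.5, 59.8 and 48.6 in cDC2. The subsets overlapped, and the difference of 29.1 was not called (SE 13.9, adjusted p = 0.166). The first WT cDC1 library had a summit there just outside its best 61737, and the first KO cDC1 library had none. The site 14.6 kb into the gene ranked above the start site in each cDC2 library.

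Hes1 (chr16:30065357-30067796) had 9, 10, 8 and 7 summits in cDC1 and 10, 9, 10 and 9 in cDC2. The difference was 0.15 (SE 0.12, adjusted p = 0.458). Of 12 sites tested, 2 ranked lower in cDC2 (16.7%, beside 14.3% of all sites) and none higher. One lay 1.13 kb outside the span (chr16:30064159-30064300), with 82.1, 85.4, 84.9 and 87.0 in cDC1 and 69.3, 71.7, 72.0 and 63.9 in cDC2 libraries. The subsets did not overlap there, and the difference was -15.6 (SE 2.60, adjusted p = 0.00740). The other, 2.64 kb past the other end of the gene (chr16:30070327-30070546), fell from 75.9 ± 5.84 to 49.2 ± 6.73 (SD, n = 4 each, adjusted p = 0.00763). A site 46.5 kb from the gene was found in every cDC2 list and no cDC1 list, at rank scores of 5.34 to 34.5, and was not called (adjusted p = 0.0641). The window's highest mean rank was at a site 41.8 kb outside the span, with 85.7 to 91.2 in all libraries and no call (adjusted p = 0.764).

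**Figure D3:**
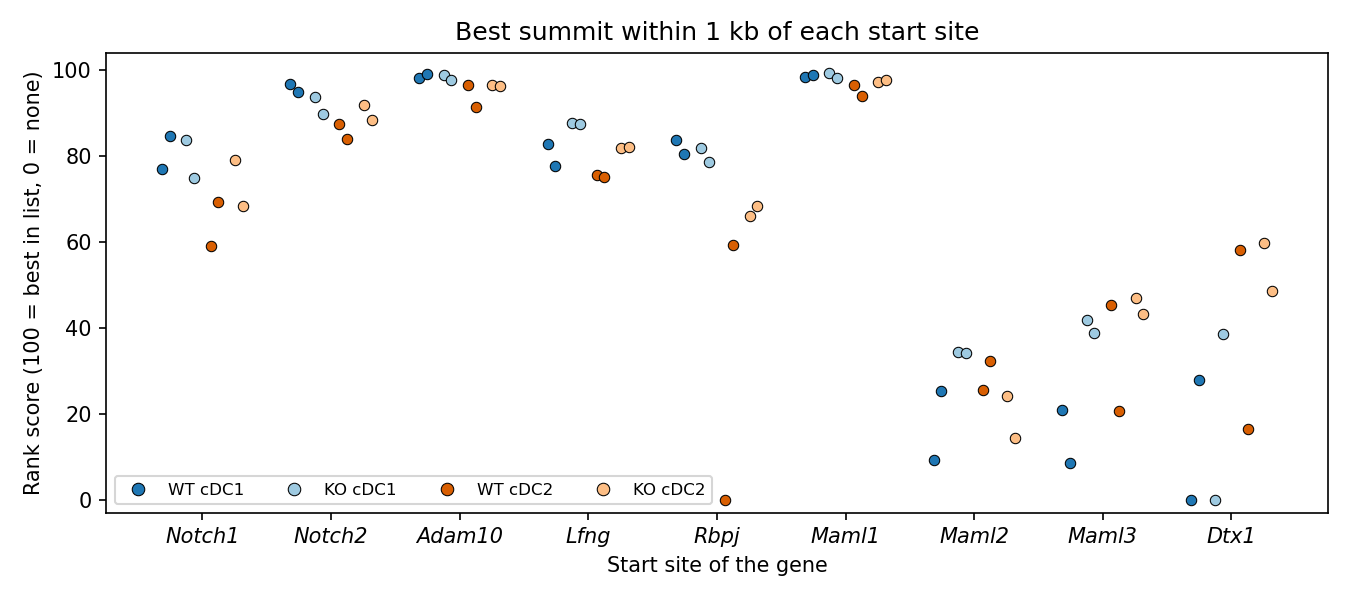
Rank score of the best summit within 1 kb of the start site (y axis, 0 where a list of equal length has none) for the 9 genes with a start site in the promoter table (x axis). Points are single libraries coloured by group, the later start site is drawn for Rbpj and the first for Maml2. Adam10, Maml1 and Notch2 lie above 80 in every library, and Dtx1, Maml2 and Maml3 below 60. The higher ranked site at the beginning of the Maml2 span lies more than 1 kb from the start drawn and is not shown.

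Of the 9 start sites drawn, the 1 called was that of Notch2. The site at the very beginning of the Maml2 span lies more than 1 kb from the Maml2 start drawn and is not among them. As described above, it ranked high in all libraries and was called higher in cDC2. Among all sites found in the 8 libraries, those within 1 kb of a start site had a median difference of -0.78 between the subsets and the others one of 2.01. In all, 24 of the 267 sites lay within 1 kb of a start site of any gene in the promoter table. By place, 150 lay inside the gene they were assigned to, 37 inside another gene and 80 between genes. Sites found in all 8 libraries numbered 74, or 27.7%, against 26.4% of all sites, and 18.9% of them lay within 1 kb of a start site, against 27.1% of all such sites.

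Sites found in every library of 1 subset and in none of the other numbered 15, with 6 in cDC1 and 9 in cDC2. That is 5.62% of the 267 sites, beside 6.74% of all sites. By direction the shares were 2.25% for cDC1 beside 4.33% of all sites, and 3.37% for cDC2 beside 2.42%. None of the 15 lay within 1 kb of a start site in the promoter table, against 2.83% of all such sites. That table has no entry for Hes1, and gene starts absent from it were not checked. Notch2 held 4 of them, 2 in each direction, and Dtx1 held 3, all of cDC2. Of the 15, 8 had no summit of the other subset in the longer deposited lists and 7 had one in 1 or 2 of them. The calls 115.5 kb into Notch2, 38.2 kb before Dtx1 and 44.9 kb before Lfng were lost with the best 30868 summits (adjusted p = 0.351, 0.233 and 0.0906), and no other alternative ended them. The call 16.2 kb into Maml2 was lost under 7 of 16 alternatives, 6 of which left out a library that was not WT cDC1. Lists of other lengths moved the counts of such sites. All deposited summits gave 13 sites of cDC1 and 4 of cDC2. With a library left out, the rule asks for fewer libraries, so the counts can stay or rise but not fall. Without the second KO cDC1 library the count of cDC1 sites was 14 and that of cDC2 sites 9. For that reason these counts do not bear on list length.

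**Figure D4:**
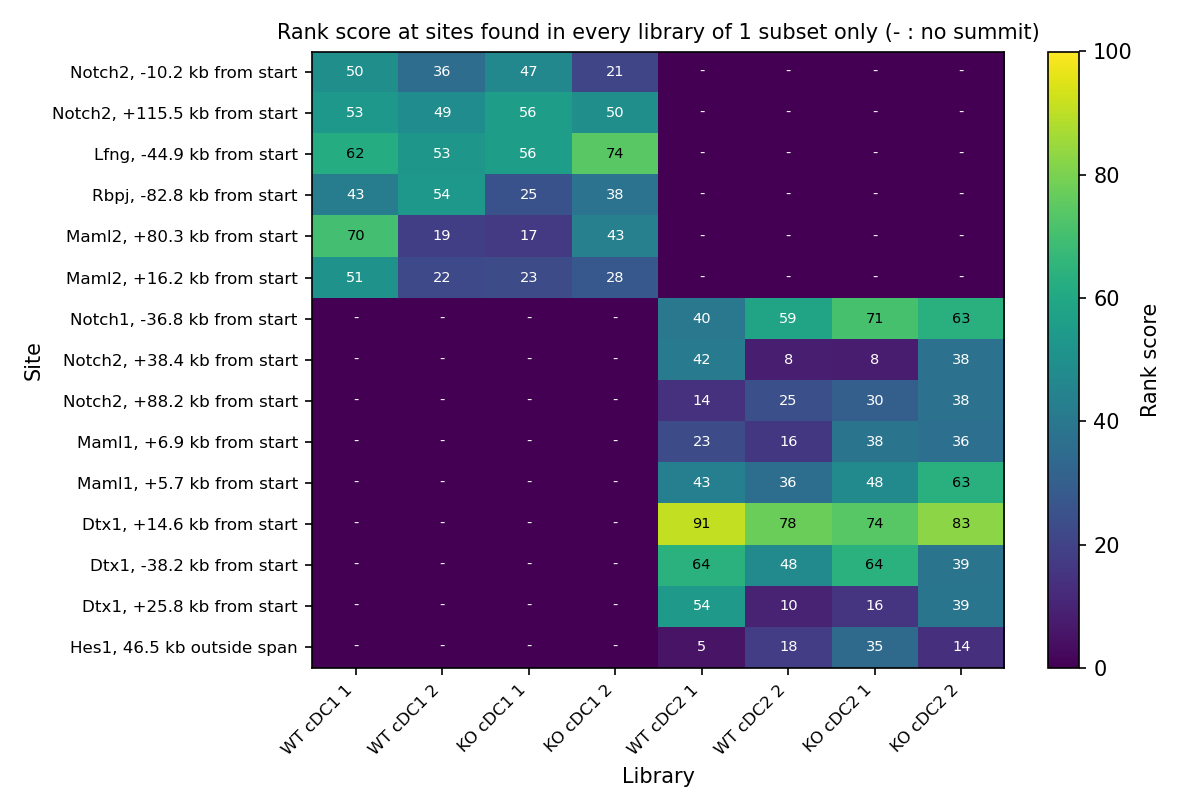
Rank score (colour and printed value, 100 for the best summit of a list) of the 15 sites found in every library of 1 subset and in none of the other (rows, named by gene and distance) in the 8 libraries (columns). A dash marks no summit in the list of equal length. The site 14.6 kb into Dtx1 has the highest values, 74.1 to 90.9 in the cDC2 libraries.

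Counted over all windows, 28 sites ranked higher and 32 lower in cDC2, or 60 of the 199 tested (30.2%), beside 12.6% of all sites higher and 14.3% lower. The other 68 sites had a summit in 1 library and were left out by the filter of at least 2 libraries. They entered the fit only in the alternative that asks for a summit in at least 1 library. Of the 60, 22 had no summit in any list of 1 subset. In simulated data the site fit made false calls where a site's values were redrawn from its own values, so that zeros and other scores recurred. It made none where presence and noise were drawn anew, although zeros recurred there too. Whether the zeros here led to false calls was not tested. In WT alone 39 sites were called beside 15.1% of all, and in KO alone 24 beside 11.2%. These single-genotype counts were not stable. Both were 0 with the replicate number as a block, the WT count was 7, 9, 16 or 9 when 1 of the WT libraries was left out, and the KO count was 12, 13, 7 or 0 when 1 of the KO libraries was left out, with 0 without the second KO cDC2 library. With only the KO libraries in the fit, the KO count was 0. The shares of the 10 windows lay near those of the whole set of sites. Of the 60, 23 kept their direction and their call under every alternative that tested them, and 20 lost it under 5 or more. The 23 include sites of the Notch1, Notch2, Rbpj, Dtx1, Maml1 and Maml3 windows with no summit in 1 subset. For these a kept call restates the presence pattern.

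Genotype was compared within each subset, over both, and as a difference between the subsets. In each of the 10 windows the WT and KO libraries overlapped, and 0.869% of all windows did not. No gene of the 10 was called by limma in any of these contrasts, and none had an unadjusted p under 0.05. Of all 17728 genes, 3 were called in cDC1 (0.0169%), 1 in cDC2 (0.00564%), 0 over both subsets (0.0%) and 0 for the difference (0.0%), with 976, 1041, 1259 and 738 at an unadjusted p under 0.05. The differences of the 10 genes ran from -0.33 to 0.24 in cDC1 and from -0.23 to 0.10 in cDC2. Maml2 had the widest in cDC1, with 26 and 30 summits in WT and 23 and 21 in KO (-0.33, SE 0.18, adjusted p = 0.971). For Notch2 the difference was 0.00 in cDC1 and 0.06 in cDC2, with an SE of 0.17 in both.

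**Figure D5:**
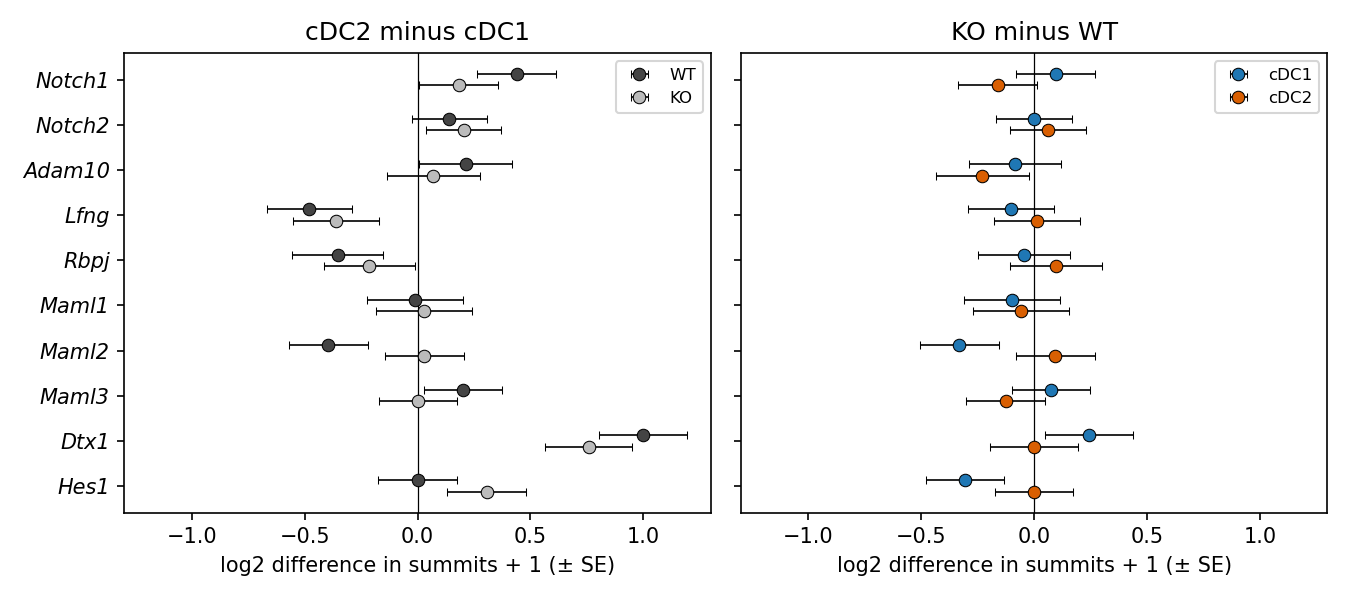
Log2 difference in summits + 1 with its standard error (x axis) for the 10 genes (y axis), for cDC2 minus cDC1 within each genotype (left) and KO minus WT within each subset (right). Dtx1 stands at 1.00 in WT and 0.76 in KO on the left, and on the right all values lie between -0.33 and 0.24.

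At single sites, limma called 0 of the 199 sites for KO against WT in cDC1, in cDC2, over both and for the difference between the subsets. Of all sites tested, 0.0106%, 0.102%, 0.0423% and 0.0317% were called in these contrasts. At an unadjusted p under 0.05 the counts were 15, 13, 18 and 17 of 199, or 7.54%, 6.53%, 9.05% and 8.54%, beside 9.27%, 9.36%, 12% and 8.09% of all sites. The lowest adjusted p-values, 0.0705 and 0.0800 in cDC1, belonged to a pair of sites near the 3′ end of Maml3. In cDC1 the WT libraries had a summit at chr3:51724077-51724118 (77.6 and 82.7) and the KO libraries at chr3:51723664-51723670 (69.1 and 63.2), and in cDC2 neither was found. With chaining over 500 bp they became 1 site present in all 4 cDC1 libraries. With chaining over 100 bp, normal scores in place of percentiles, or no variance trend, 2, 5 and 3 sites were called in cDC1. A single site of the 267 was found in all WT and no KO libraries. It lay inside Maml3 (chr3:51745221-51745276), with rank scores of 10.4 to 31.2 in WT, and was not called over both subsets (adjusted p = 0.214). No site was found in all KO and no WT libraries. Over all sites the shares were 0.0694% and 0.0836%, and 0.153% for either.

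Other genes of the pathway were taken from a list of 46, all tested. Of these, 1 had more summits in cDC2 and 5 had fewer, beside 5.84% and 5.93% of all genes, and the median difference was -0.0017. Mib1, a ubiquitin ligase that activates Notch ligands, rose from 4 to 5 summits in cDC1 to 6 to 7 in cDC2 (0.52, adjusted p = 0.0296). The glycosyltransferase Poglut1 fell from 13 to 17 summits to 7 to 9 (-0.76, SE 0.14, adjusted p = 0.00926). Numb, an inhibitor of Notch, went from 12 to 15 down to 6 to 10 (-0.66, adjusted p = 0.0137), the protease Adam17 from 13 to 15 down to 9 to 10 (-0.46, adjusted p = 0.0349) and the corepressor Ncor1 from 11 to 14 down to 6 to 9 (-0.59, adjusted p = 0.0302). The best 30868 summits ended the calls named here except that of Numb, which was called under all 19 alternatives. The other calls named were lost under 1 (Poglut1), 7 (Mib1 and Ncor1) and 10 (Adam17) alternatives. None of the 46 was called for genotype.

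Of 3 genes known to depend on Notch2 in splenic cDC2, Esam and Clec4a4 had more summits in cDC2 and Cd4 was not called. Over all genes, 5.84% were called higher. All 3 are also among the cDC2 markers above, so these are the same calls and not a further result. Esam had 5, 8, 9 and 9 in cDC1 and 13, 12, 14 and 12 in cDC2 (0.68, SE 0.15, adjusted p = 0.0181). Outside the gene it had 4 to 6 summits in cDC1 and 11 to 12 in cDC2 libraries. Inside the span the counts were 1 to 3 and 1 to 2, and the difference there was -0.46 (adjusted p = 0.317). With all deposited summits neither was called (Esam 0.45, adjusted p = 0.0719, and Clec4a4 0.19, adjusted p = 0.486), nor was Esam with a window of 10 kb (0.07, adjusted p = 0.914) or with each summit given to its nearest gene (0.02, adjusted p = 1.0). Clec4a4 had 4 to 6 summits in cDC1 and 7 to 8 in cDC2 libraries (0.64, SE 0.14, adjusted p = 0.0158). Cd4 had 14 to 21 and 16 to 21 (0.10, adjusted p = 0.696). KO and WT did not differ by the test for any of the 3.

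The genes whose counts over the 8 libraries were most like those of Notch2, by Pearson r of log2(summits + 1) among 16389 genes, were Iqgap2 (0.977), Coq3 and Tada2b (0.965 each), Gm42337 (0.964) and Grpel1 (0.962). Those most like Dtx1, among 1187 genes, were Cdx4 (0.995), Scn11a (0.991), Elovl7 (0.985), 4930503B20Rik (0.982) and Sycp2 (0.980). Scn11a went from 0, 0, 1 and 0 summits in cDC1 to 9, 9, 10 and 8 in cDC2, and Elovl7 from 3, 4, 5 and 3 to 11 in each library. These correlations over 8 libraries that share their groups describe the profiles and carry no test.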

How the data were processed

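ATAC-seq was run on sorted mouse spleen cDC1 and cDC2. Per the submitters' processing notes, Bowtie2, SAMtools, MACS2 and MultiQC were used with GRCm38 (mm10). Versions, filters and settings are not given in the sources used here. The authors deposited 1 list of peak summits per library, and its score is a deposited −log10 value, taken from its lowest values to be a −log10 q-value. It rises with depth, so it was used for ranks inside each list and nothing else. There are no read counts, and the depth of each library is unknown.

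Each list was shortened to its best 61737 summits. Gene spans and start sites came from RefSeq GRCm38.p6, the build of the files, with no exons. Summits per gene window were compared with limma 3.58.1 (R 4.3.3) on log2(summits + 1) for genes whose mean was 1 summit or more, with 4 group means and the variance of rounding to whole numbers (0.0833 squared summits) added. Rank scores were compared with limma with a variance trend over sites found in at least 2 libraries. All adjusted p-values are Benjamini-Hochberg values over all genes or sites tested, 2-sided, with a threshold of 0.05. Both fits were tested on simulated data. The site fit made false calls there when a site's values were redrawn from its own 8, where identical values recur, and none when presence and noise were drawn anew. Start sites were looked for within 1 kb.

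The 10 genes, the lists, the rule for named sites (every site called or found in 1 subset alone, and the highest ranked of each gene) and the added variance were chosen with earlier results of these data known. No summit position was shared with an identical score between any pair of libraries. The values of 1 gene counted in the list of other pathway genes are not reported here. Shorter and longer lists, windows, chaining distances, filters, variance models and leaving out each library were tried as alternatives.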

Additional observations from a re-analysis of the deposited data

Results flagged for a closer look

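With 22 groups of 4 libraries examined for a single library far from the other 3, a rule that chance meets in about 1 of 20 groups of continuous values, 4 values stood apart. In the 3 summit counts among them the other 3 libraries were tied, so that any difference meets the rule and that rate does not hold. The second KO cDC1 library had 7 summits in the Notch1 window where the other cDC1 libraries had 6. The first KO cDC1 library had 6 summits in the Dtx1 window where the others had 4. The first KO cDC2 library had 7 summits in the Adam10 window where the others had 10. The deposited list of the second KO cDC1 library held 96031 summits, against 74963 to 77585 in the other cDC1 libraries. Without the first KO cDC1 library, the Dtx1 difference was 1.00 (log2, adjusted p = 0.00223, limma).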

How the results depend on the processing

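With limma, the number of the 10 genes called for subset, with WT and KO in 1 contrast, was 2 with the best 30868 summits per list, with the gene span alone, with a filter at 3 summits and with a trended, robust variance, and 1 to 2 when each library was left out in turn. In WT it was 0 with all deposited summits and with the best 30868, and 0 to 1 with a library left out. In KO it was 1 with the filter at 3 summits, with the trended variance, with the replicate number as a block and with only the libraries of the contrast. Sites called for subset numbered 38 over all libraries, 25 within WT and 11 within KO with the best 30868, 0 in KO with only the libraries of the contrast, and 7 to 35 in WT and 0 to 23 in KO with a library left out. With the replicate block they numbered 50 over all libraries and 0 within each genotype. Same-numbered libraries did not deviate together (r of 0.045 in WT and 0.035 in KO over gene windows, and up to 0.090 over sites), which is below the 0.1 set for treating the numbers as pairs. The labels do not say whether such libraries share a mouse. Sites called for genotype numbered 2 (chaining 100 bp), 5 (normal score) and 3 (no trend) in cDC1, 4 (chaining 100 bp) and 0 to 1 (a library left out) in cDC2, 2 and 2 over both and 1 and 2 for the difference between subsets (chaining 100 bp and no trend). Sites of 1 subset alone numbered 13 for cDC1 and 4 for cDC2 with all deposited summits and 2 for cDC2 with the best 30868. With a library left out they numbered 6 to 14 for cDC1 and 9 to 12 for cDC2, where the looser rule allows no fall. The difference in list length ranged from -15360 (exact permutation p = 0.0286, without the second KO cDC2 library) to -7273 (without the second KO cDC1 library).

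Log2 differences changed sign as follows. With all deposited summits they were -0.060 for Notch2, -0.095 for Hes1, -0.28 for Adam10, -0.18 for Maml1 and -0.13 for Maml3. With the best 30868 they were -0.13 for Hes1, -0.10 for Adam10 and -0.24 for Maml1. With a library left out, Maml1 ranged from -0.12 to 0.13 (below 0 at -0.09 without the second WT cDC2 and -0.12 without the second KO cDC2 library), and Cd4 from -0.033 to 0.24 (below 0 without the first KO cDC1 library). Lfng was at 0.015 with a window of 10 kb and Esam at -0.46 with the gene span alone. A Maml3 site 316.1 kb past the start was at -3.34 with chaining over 500 bp. The cause of these changes was not tested. Of all single values, these included, 837 of 1041 for sites and 337 of 398 for genes kept their direction and their side of the threshold. The unknown depth limits every statement on absent summits.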
